A study of Mus musculus with 6 samples.

Results

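The Cyp3a cytochromes P450 of mouse liver were examined together with the receptors that induce them, PXR (Nr1i2) and CAR (Nr1i3), and with Por, which supplies their electrons. The 10 genes were chosen by symbol, namely Cyp3a11, Cyp3a13, Cyp3a16, Cyp3a25, Cyp3a41a, Cyp3a44, Cyp3a59, Nr1i2, Nr1i3 and Por, out of 46095 gene symbols in the deposited table. All 10 were present. RNA-seq libraries came from 3 HFD-ARRB1-KO and 3 HFD-WT samples, that is, from C57BL/6 mice with ARRB1 (beta-arrestin 1) knocked out and from wild-type mice, both fed a high-fat diet for 26 weeks. The source is given as liver and the cell type as hepatocyte. The sources used here do not give the mice's sex or age, or how the knockout was made. The genotype labels of knockout replicates 2 and 3 read ARRB2-/- and ARRB3-/-, whereas their titles name ARRB1, and the titles were followed.

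Members of the CYP3A family are haem enzymes of the endoplasmic reticulum that oxidise many drugs, steroids and bile acids. PXR and CAR are nuclear receptors that sense foreign compounds and bile acids. Each binds DNA as a dimer with the retinoid X receptor, at paired copies of a hexamer related to AGGTCA, and switches on genes of the CYP2B, CYP2C and CYP3A families, conjugating enzymes and transporters. Each P450 reaction also needs electrons, which Por, the NADPH-cytochrome P450 reductase, passes on from NADPH.

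Values are FPKM, fragments scaled to gene length and to the fragments of the library. Whole reads behind the values were recovered from their steps, and summed to 12204722, 31308190 and 25983958 reads in knockout replicates 1 to 3 and to 29379508, 25049588 and 26790437 reads in wild-type replicates 1 to 3. These sums cover the 17547 genes above 0 in at least 4 libraries whose reads came out whole. Alb, which averaged 31614 FPKM over all libraries, is not among them. The targeted gene Arrb1 was at 0.918, 1.05 and 1.16 FPKM in the knockout libraries, against 3.86, 22.7 and 16.9 FPKM in the wild-type libraries. The 10633 genes that averaged 1 FPKM or more were tested with limma, which called 564 higher and 170 lower in knockout at an adjusted p under 0.05. The split was 346 higher and 232 lower with median-of-ratios scaling, and 371 higher and 204 lower with quantile normalization. The median log2 fold change of all tested genes was 0.07. Hepatocyte markers were abundant in each library, with a summed level of 67106 to 77660 FPKM over 19 genes in knockout libraries and 75828 to 83392 FPKM in wild-type libraries. In such samples, fewer cells of a type and less RNA per cell cannot be told apart.

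Most Cyp3a genes lie in 1 cluster on chromosome 5 and include copies so alike that their reads are hard to assign. The cluster runs from 145345279 to 146113287 (GRCm38, GENCODE vM21 annotation), a span of 768 kb with 8 protein-coding Cyp3a genes and 1 Cyp3a pseudogene. In order of position the coding genes are Cyp3a57, Cyp3a16, Cyp3a41b, Cyp3a41a, Cyp3a44, Cyp3a11, Cyp3a25 and Cyp3a59. Cyp3a13 stands apart on the same chromosome, from 137892932 to 137921619, and Por lies at 135670033 to 135735326. Nr1i2 is on chromosome 16, from 38248323 to 38294824, and Nr1i3 on chromosome 1, from 171213970 to 171220701.

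By the annotated transcripts the cluster falls into a Cyp3a11 group and a Cyp3a25 group of copies. Cyp3a41a and Cyp3a41b were 99.9% identical over the aligned transcripts, and only 1.39% of the 50-base windows of Cyp3a41a occurred in no other Cyp3a transcript. Reads from these genes can hardly be separated. Cyp3a11, Cyp3a16, Cyp3a41a, Cyp3a41b and Cyp3a44 were between 91.6% and 99.9% identical to one another. Cyp3a11 itself had 85.3% of its 50-base windows to itself, and 99.7% of its 100-base windows.

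Cyp3a25, Cyp3a59 and Cyp3a57 form the other group. Cyp3a25 and Cyp3a59 were 97.0% identical, and 24.7% of the 50-base windows of Cyp3a59 also occurred in Cyp3a25. Cyp3a57 was 93.4% identical to Cyp3a59. Cyp3a13 shared no 50-base window with any other Cyp3a transcript. The sources used here do not say how reads matching several genes were treated, so values within each group of copies are uncertain, and those of Cyp3a41a and Cyp3a41b most of all.

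**Figure D1:**
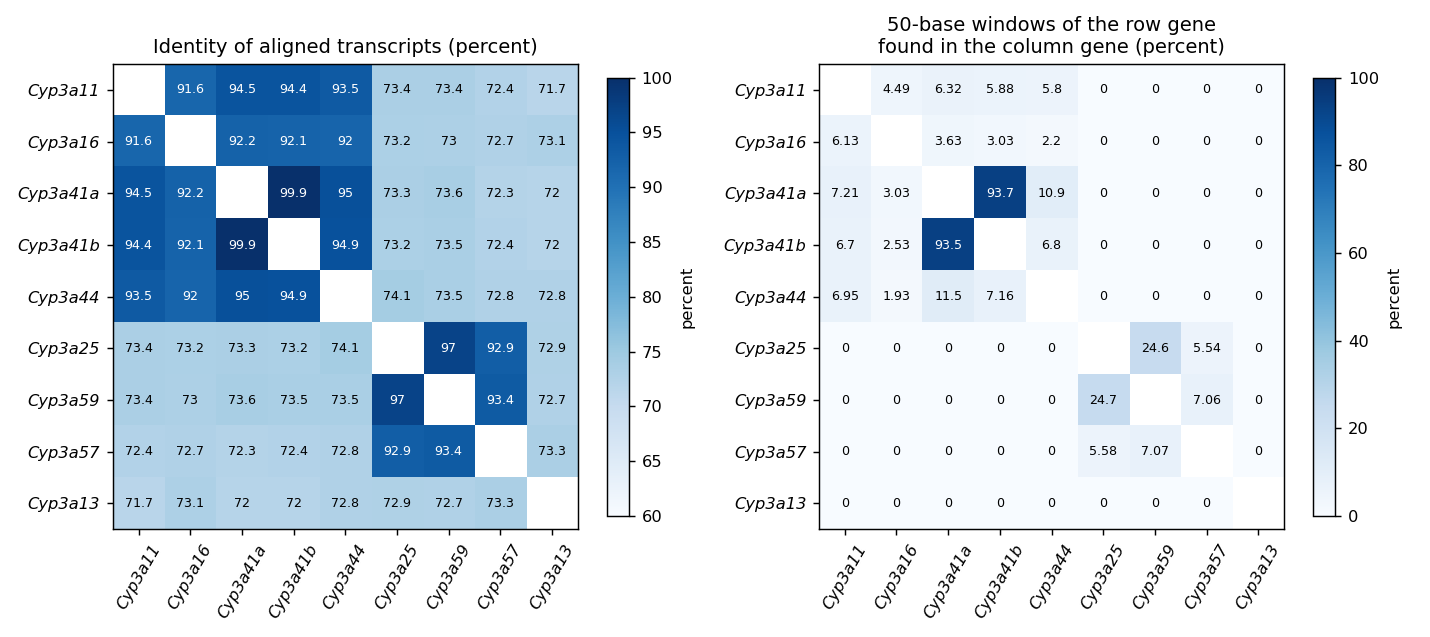
Percent identity of aligned GENCODE vM21 transcripts (left) and percent of the 50-base windows of the row gene that occur in the column gene (right) for 9 Cyp3a genes. The blocks of Cyp3a11 with Cyp3a16, Cyp3a41a, Cyp3a41b and Cyp3a44, and of Cyp3a25 with Cyp3a59 and Cyp3a57, stand out, and Cyp3a41a and Cyp3a41b share 93.5% to 93.7% of their windows.

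The same grouping shows in the 250 bases before each start, taken from RefSeq for GRCm38.p6 and printed for Cyp3a11, its low copy Cyp3a44, and the Cyp3a25 group, because Cyp3a11 and Cyp3a59 were the members that differed between genotypes. Capitals mark, in Cyp3a11, a direct repeat of 2 hexamers 4 bases apart (DR4), in Cyp3a44 a single AGGTCA, and in Cyp3a25, Cyp3a59 and Cyp3a57 a direct repeat with a 1-base spacer (DR1).
Cyp3a11: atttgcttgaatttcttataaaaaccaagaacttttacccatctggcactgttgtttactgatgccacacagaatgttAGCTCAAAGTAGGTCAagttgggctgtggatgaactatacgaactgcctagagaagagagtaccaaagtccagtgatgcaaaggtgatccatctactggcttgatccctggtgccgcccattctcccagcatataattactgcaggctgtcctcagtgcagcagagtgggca
Cyp3a44: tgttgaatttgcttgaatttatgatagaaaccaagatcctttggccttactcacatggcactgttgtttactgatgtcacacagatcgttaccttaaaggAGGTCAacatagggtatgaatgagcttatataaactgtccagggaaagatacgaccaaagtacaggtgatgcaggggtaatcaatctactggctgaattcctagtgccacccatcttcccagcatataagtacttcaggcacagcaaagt
Cyp3a25: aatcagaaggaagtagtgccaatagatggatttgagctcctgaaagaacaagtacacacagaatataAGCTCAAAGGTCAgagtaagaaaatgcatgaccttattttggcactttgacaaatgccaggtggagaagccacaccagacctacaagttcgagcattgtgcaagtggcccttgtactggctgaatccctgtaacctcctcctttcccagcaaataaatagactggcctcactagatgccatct
Cyp3a59: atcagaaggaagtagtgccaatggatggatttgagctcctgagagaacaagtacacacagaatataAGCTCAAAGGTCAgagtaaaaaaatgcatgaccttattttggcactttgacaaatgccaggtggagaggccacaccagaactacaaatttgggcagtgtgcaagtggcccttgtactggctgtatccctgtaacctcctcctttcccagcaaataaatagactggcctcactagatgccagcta
Cyp3a57: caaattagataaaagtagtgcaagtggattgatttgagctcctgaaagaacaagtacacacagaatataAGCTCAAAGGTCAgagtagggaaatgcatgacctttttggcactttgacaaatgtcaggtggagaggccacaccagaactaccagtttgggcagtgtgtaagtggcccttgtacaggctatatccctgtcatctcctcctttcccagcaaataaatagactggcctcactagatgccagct
These stretches lie at chr5:145879855-145880104 (minus strand) for Cyp3a11, chr5:145805875-145806124 (minus strand) for Cyp3a44, chr5:146009619-146009868 (minus strand) for Cyp3a25, chr5:146079008-146079257 (plus strand) for Cyp3a59 and chr5:145345019-145345268 (plus strand) for Cyp3a57. For Cyp3a25, which RefSeq gives more than 1 start, the first entry was used. Distances from the start are counted from RefSeq starts. GENCODE places the start of Cyp3a11 at 145879964, inside the printed stretch. The DR4 lies before both starts, nearer to the GENCODE one.

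Cyp3a11 held a DR4, and Cyp3a25, Cyp3a59 and Cyp3a57 each held a DR1, near the same place when counted from the RefSeq starts. Of the close copies of Cyp3a11, Cyp3a44 held only a single hexamer and Cyp3a16, Cyp3a41a and Cyp3a41b held none of the motifs searched. The motifs searched, on both strands, were the single hexamer AGGTCA, the direct repeats AGNTCANAGNTCA (DR1), AGNTCANNNAGNTCA (DR3) and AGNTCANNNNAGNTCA (DR4), and the everted repeats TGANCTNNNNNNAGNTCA (ER6) and TGANCTNNNNNNNNAGNTCA (ER8). DR3, DR4 and ER6 are arrangements that PXR or CAR is known to bind, while DR1 is bound by HNF4A and by PPAR with the retinoid X receptor. The DR4 match of Cyp3a11 read AGCTCAAAGTAGGTCA, at bases -172 to -157 from the start. Some match to the DR4 pattern, which leaves several letters open, occurred in 34 of the 32851 promoters searched (0.103%), Cyp3a11 included. Cyp3a25, Cyp3a59 and Cyp3a57 held the DR1 letters AGCTCAAAGGTCA, in Cyp3a59 at bases -184 to -172, and 0.183% of promoters held a DR1. The DR4 of Cyp3a11 and the DR1 of the other genes open with the same 9 bases, AGCTCAAAG.

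No DR3, ER6 or ER8 letters occurred in the 250 bases of any of the 12 promoters, namely those of the 10 genes and of Cyp3a41b and Cyp3a57. The single AGGTCA, which is also the second hexamer of the repeats just described, occurred in 5 of the 12 and in 14.0% of all promoters. Cyp3a25, Cyp3a59 and Cyp3a57 held a further copy on the opposite strand, outside the repeat. Cyp3a59 and Cyp3a25 were 95.6% identical over the aligned 250 bases. A match to letters in this window is not a measured binding site.

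**Figure D2:**
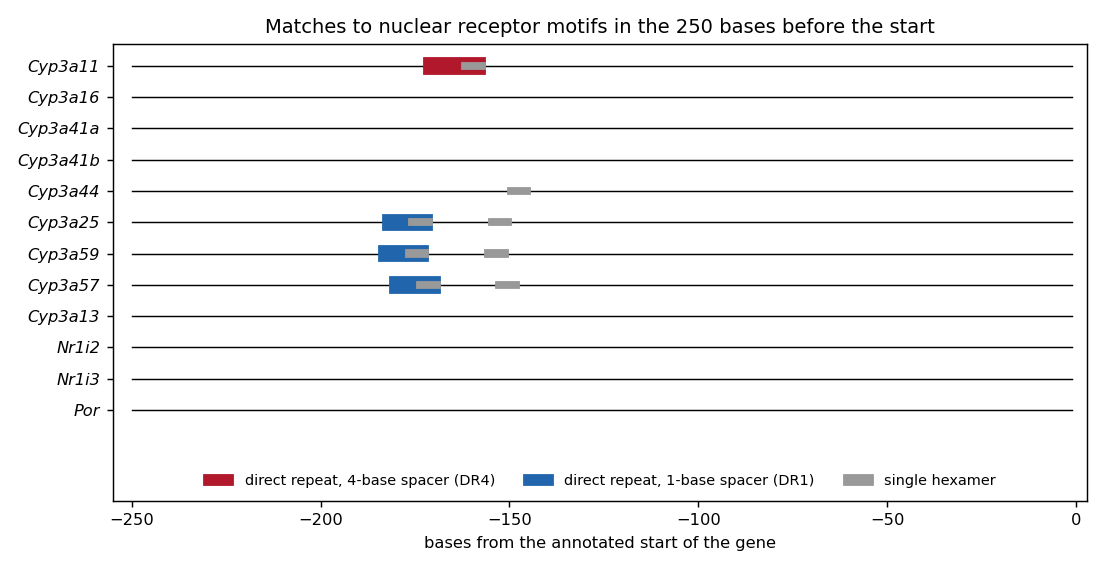
Position of motif matches (bars) along the 250 bases before the RefSeq start of 12 genes, in bases from that start. Cyp3a11 alone shows a DR4 match, at -172 to -157, and Cyp3a25, Cyp3a59 and Cyp3a57 each show a DR1 match.

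Of the 10 genes, Cyp3a11 and Cyp3a59 were higher in knockout, none was lower, and Cyp3a13, Cyp3a25, Nr1i2, Nr1i3 and Por did not pass the test. The comparison asks whether loss of ARRB1 on the high-fat diet was accompanied by a change in this drug and steroid oxidising system. Cyp3a16, Cyp3a41a and Cyp3a44 were below the filter and were not tested. Of 7 tested genes, 2 were thus called higher, where 5.3% of all tested genes were called higher, 1.6% lower and 6.9% in either direction. At an unadjusted p under 0.05, limma had 4 of the 7 higher and none lower, where 2690 of the 10633 tested genes passed in either direction. With voom on the recovered reads, 2 were called higher and none lower, where 821 genes were higher and 207 lower of 10628. Of the 7 genes, 3 had all knockout values above all wild-type values and none had all below, where 23.4% of all tested genes lay above, 7.81% below and 31.2% either way. The median log2 fold change of the 7 genes was 0.35, beside 0.07 for all tested genes. Fold changes are knockout over wild type on the log2(FPKM + 1) scale and come from limma with Benjamini-Hochberg adjustment over all tested genes.

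Cyp3a11, the main CYP3A enzyme of adult mouse liver and the classical target of PXR, showed the largest difference. It measured 565, 869 and 560 FPKM in the knockout libraries, against 224, 146 and 133 FPKM in the wild-type libraries. All 3 knockout values lay far above all 3 wild-type values, with knockout replicate 2 highest. The means were 665 ± 177 FPKM in knockout and 168 ± 49.2 FPKM in wild type (SD, n = 3 each), a 3.96-fold ratio of means. The log2 fold change was 1.99 ± 0.237 (SE; limma, adjusted p = 0.00575), with a 95% interval of 1.44 to 2.54. An exact permutation test, two-sided, gave p = 0.1, which is as small as 3 against 3 libraries can give. Between 8292 and 62513 reads stood behind each value. By mean FPKM, Cyp3a11 ranked 89 among the tested genes in knockout and 351 in wild type.

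Cyp3a59, the gene at the far end of the cluster, was also higher, at a level far below that of Cyp3a11. It measured 16.0, 11.9 and 6.84 FPKM in the knockout libraries, against 3.74, 3.33 and 2.91 FPKM in the wild-type libraries. The groups did not overlap, and the knockout libraries spread more widely than the wild-type ones. The means were 11.6 ± 4.58 FPKM in knockout and 3.33 ± 0.416 FPKM in wild type (SD, n = 3 each), a 3.48-fold ratio of means. The log2 fold change was 1.47 ± 0.254 (SE; limma, adjusted p = 0.0197; exact permutation p = 0.1), on 186 to 882 reads per library. The call was lost without knockout replicate 2 (limma, adjusted p = 0.0817), without wild-type replicate 2 (limma, adjusted p = 0.0772) or 3 (limma, adjusted p = 0.0528), and with no filter on low values (limma, adjusted p = 0.0894).

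Cyp3a25, an abundant liver form and the closest copy of Cyp3a59, did not pass. Its values were 189, 162 and 123 FPKM in the knockout libraries, against 108, 135 and 101 FPKM in the wild-type libraries. Knockout replicate 3 fell below wild-type replicate 2, so the groups overlapped. The log2 fold change was 0.45 ± 0.175 (SE; limma, adjusted p = 0.166; exact permutation p = 0.2), with a 95% interval of 0.04 to 0.85. The FPKM ratio of Cyp3a59 to Cyp3a25 was 0.0845, 0.0737 and 0.0557 in the knockout libraries, against 0.0345, 0.0246 and 0.0288 in the wild-type libraries. All knockout ratios lay above all wild-type ratios. Of the 50-base windows of Cyp3a59, 72.0% occurred in no other Cyp3a transcript.

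Cyp3a13, a form expressed in liver and intestine, did not pass. It measured 87.1, 59.7 and 71.0 FPKM in the knockout libraries, against 78.3, 80.3 and 63.7 FPKM in the wild-type libraries. The groups overlapped almost fully, and the log2 fold change was -0.04 ± 0.153 (SE; limma, adjusted p = 0.904), with a 95% interval of -0.39 to 0.32. Its sign turned on the TPM scale (0.015).

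**Figure D3:**
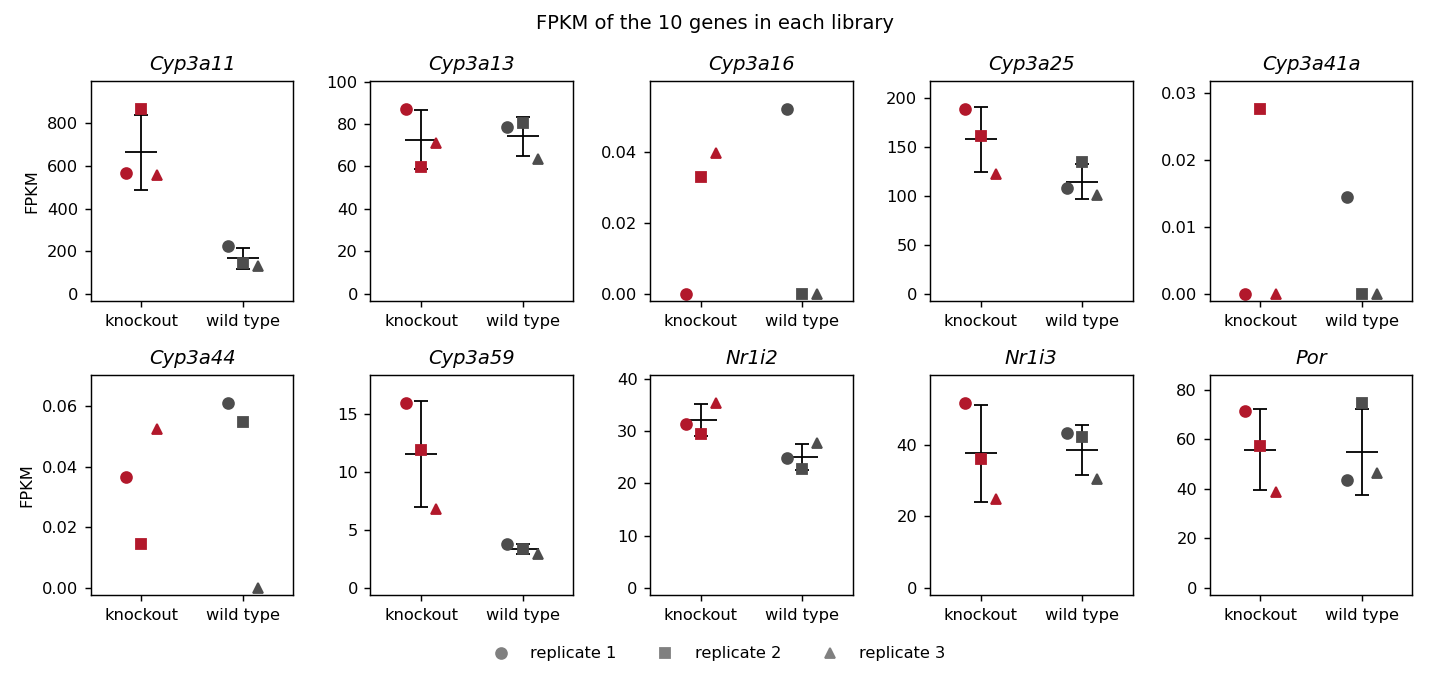
FPKM of each of the 10 genes in the 3 knockout (left, red) and 3 wild-type libraries (right, grey), with a symbol for each replicate and, for the 7 tested genes, bars for mean and SD. Cyp3a11 and Cyp3a59 are separated by a wide gap, Nr1i2 by a narrow one, and Cyp3a16, Cyp3a41a and Cyp3a44 stay below 0.07 FPKM.

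The 3 untested members were close to silent in every library. Cyp3a16 had 0, 2 and 2 reads in the knockout libraries and 3, 0 and 0 reads in the wild-type libraries. Cyp3a41a, a form found mainly in female mouse liver, had 0, 2 and 0 reads in knockout and 1, 0 and 0 reads in wild type, and its copy Cyp3a41b had 1, 3 and 2 reads in knockout and 1, 0 and 0 reads in wild type. Cyp3a44, likewise mainly female, had 1, 1 and 3 reads in knockout and 4, 3 and 0 reads in wild type. The sum of these 4 genes did not exceed 0.142 FPKM in any library, including knockout replicate 2, where their close relative Cyp3a11 had 62513 reads. A difference between genotypes was not detectable at this depth.

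Of the 6 further rows whose symbol starts with Cyp3a, Cyp3a57 had reads in knockout only, with 11 in replicate 2, 5 in replicate 3 and none in replicate 1. It was listed at 0 in all wild-type libraries. Its 16 reads are too few for a test, and it is a close copy of Cyp3a59. Cyp3a60-ps and Cyp3a61-ps1 were listed at 0 throughout, and Cyp3a58-ps and Cyp3a63-ps were each above 0 in 1 knockout library only, at 0.0018 and 0.0012 FPKM.

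Summed over the 13 Cyp3a rows, the family stood at 858, 1102 and 761 FPKM in the knockout libraries, against 415, 365 and 301 FPKM in the wild-type libraries. The groups did not overlap, and the ratio of means was 2.52. The sum still depends on how reads matching several copies were counted and on the copies' lengths. Without Cyp3a11 the sum was 292, 234 and 201 FPKM in knockout, against 191, 219 and 168 FPKM in wild type, and the groups overlapped. Cyp3a11 made up 65.9%, 78.8% and 73.6% of the summed level in the knockout libraries, against 54.0%, 39.99% and 44.3% in the wild-type libraries. In wild-type replicates 2 and 3 it thus gave less than all other Cyp3a genes together, which occurred in no knockout library.

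**Figure D4:**
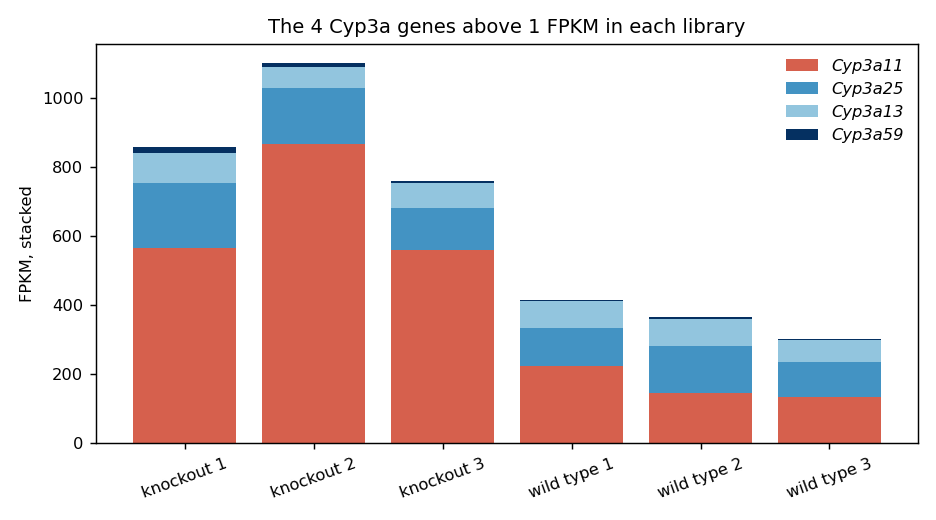
FPKM of Cyp3a11, Cyp3a25, Cyp3a13 and Cyp3a59 stacked for each library, knockout left and wild type right. The total lies between 761 and 1102 FPKM in knockout and between 301 and 415 FPKM in wild type, and most of the difference is in the Cyp3a11 segment.

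Neither receptor gene passed the test. Nr1i2, which encodes PXR, was at 31.4, 29.6 and 35.5 FPKM in the knockout libraries, against 24.8, 22.8 and 27.7 FPKM in the wild-type libraries. The lowest knockout value lay above the highest wild-type value, which 23.4% of all tested genes also showed. The means were 32.2 ± 3.05 FPKM in knockout and 25.1 ± 2.47 FPKM in wild type (SD, n = 3 each). The log2 fold change was 0.35 ± 0.106 (SE; limma, adjusted p = 0.0943; exact permutation p = 0.1), with a 95% interval of 0.10 to 0.59. On the TPM scale the adjusted p was 0.0469 by limma.

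Nr1i3, which encodes CAR, varied more within the groups than between them. It was at 51.8, 36.1 and 24.9 FPKM in the knockout libraries, against 43.2, 42.1 and 30.4 FPKM in the wild-type libraries. The highest and the lowest of the 6 values were both knockout libraries. The log2 fold change was -0.08 ± 0.252 (SE; limma, adjusted p = 0.878), and its 95% interval of -0.66 to 0.51 leaves room for a change of either sign. The sign turned without knockout replicate 3 (0.18) or wild-type replicate 1 (0.0087).

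Por was likewise variable within each genotype. It was at 71.5, 57.4 and 38.8 FPKM in the knockout libraries, against 43.5, 74.9 and 46.4 FPKM in the wild-type libraries. The groups overlapped, and the log2 fold change was 0.03 ± 0.263 (SE; limma, adjusted p = 0.963), with a 95% interval of -0.58 to 0.64. Its sign turned with median-of-ratios scaling and with quantile normalization, but not on the TPM scale. It also turned when any of 4 single libraries was left out. Among the knockout libraries, Por, Nr1i3, Cyp3a25 and Cyp3a59 were all highest in replicate 1, the shallowest library, and lowest in replicate 3. The summed Cyp3a level was 11.99, 19.2 and 19.6 times that of Por in the knockout libraries, against 9.54, 4.87 and 6.49 times in the wild-type libraries, with no overlap.

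By level per length, the order of the 7 tested genes was Cyp3a11, Cyp3a25, Cyp3a13, Por, Nr1i3, Nr1i2 and Cyp3a59 in knockout, and the same in wild type. In wild type, Cyp3a11 and Cyp3a25 were near each other (168 ± 49.2 and 115 ± 17.97 FPKM, SD, n = 3 each), whereas in knockout they were far apart (665 ± 177 and 158 ± 33.3 FPKM). In both genotypes, Cyp3a13 and Por were within their spread of each other, as were Por and Nr1i3. Nr1i3 and Nr1i2 were so in knockout but not in wild type.

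The wider set of genes known to be induced through PXR or CAR moved in both directions, more often up. Of the 52 genes listed, 41 were tested, 15 were higher in knockout and 1 was lower, where 5.3% of all tested genes were called higher and 1.6% lower. Of the 15, Cyp2b13, Cyp2a4 and Cyp2c39 reached the filter only through their knockout values, with wild-type means under 1 FPKM, so the count and median of tested genes lean towards higher. The list's median log2 fold change was 0.42, beside 0.07 for all tested genes. The list was drawn up with earlier results of these data known, and some of its genes also respond to other receptors or to growth hormone. The higher calls numbered 9 without knockout replicate 2, again 9 when wild-type replicate 1 was omitted, 8 when wild-type replicate 2 was omitted, and 6 with no filter.

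Of 13 tested P450 genes of the list, 5 were higher, 1 lower and 7 not called, with a median log2 fold change of 0.15. The 5 include Cyp2b13, Cyp2a4 and Cyp2c39, which reached the filter only through knockout. Cyp2b9 had the largest rise of the listed genes, with 112.6, 73.5 and 44.6 FPKM in knockout libraries, against 2.48, 0.273 and 0.614 FPKM in wild-type libraries. Its log2 fold change was 5.24 ± 0.424 (SE; limma, adjusted p = 0.00176). Cyp2b9 is a female-biased relative of Cyp2b10. Cyp2c38 rose to 38.8 ± 8.16 FPKM in knockout, against 8.34 ± 3.22 FPKM in wild type (SD, n = 3 each). Cyp2c54, an epoxygenase of the same family, was the gene that fell, to 39.0 ± 17.6 FPKM in knockout, against 125 ± 31.2 FPKM in wild type. That call was lost without any of the wild-type replicates, with the replicate block and with no filter, and 5 listed genes were lower without knockout replicate 1. Cyp2c29 and Cyp2c50, the most abundant P450 genes of the list that did not pass, had no call, with log2 fold changes of -0.64 ± 0.330 and -0.60 ± 0.1997 (SE; limma, adjusted p = 0.270 and 0.115).

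Cyp2b10, the classical target of CAR, was below the filter, and is named here after its values were seen. It measured 0.498, 0.683 and 0.329 FPKM in the knockout libraries, against 0.0639, 0 and 0.0879 FPKM in the wild-type libraries. The reads were 13, 45 and 18 in knockout and 4, 0 and 5 in wild type. All knockout values were above all wild-type values, which 23.4% of all tested genes also showed. The knockout values lay far below that of Cyp3a11 in the same libraries. With no filter, Cyp2b10 was not called (limma, adjusted p = 0.0814).

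Of 17 tested conjugating enzymes of the list, 6 were higher, 0 lower and 11 not called, with a median log2 fold change of 0.69. Of 3 tested transporters, 2 were higher and 1, Abcc2, was not called, with a median of 0.77. Among all tested genes, 5.3% were called higher and 1.6% lower. Gstm3, a glutathione S-transferase, was at 99.4 ± 46.8 FPKM in knockout and 20.6 ± 4.52 FPKM in wild type (SD, n = 3 each), and Gsta2 was at 7.63 ± 1.71 FPKM in knockout and 2.25 ± 0.432 FPKM in wild type. Ugt1a1, which conjugates bilirubin, rose to 87.4 ± 4.18 FPKM in knockout, against 53.8 ± 2.71 FPKM in wild type (limma, adjusted p = 0.00594). Its neighbour Ugt1a9, which shares exons with it, rose to 8.68 ± 2.09 FPKM in knockout, against 2.78 ± 0.454 FPKM in wild type. The efflux transporter gene Abcc3 rose to 102 ± 10.2 FPKM in knockout, against 43.3 ± 7.90 FPKM in wild type (limma, adjusted p = 0.00575). Fmo5, a flavin monooxygenase, rose to 233 ± 12.4 FPKM in knockout, against 117 ± 10.2 FPKM in wild type (limma, adjusted p = 0.00339). Aldh1a1, the most abundant gene of the list that did not pass, was at 1140 ± 172 FPKM in knockout and 919 ± 168 FPKM in wild type (limma, adjusted p = 0.301).

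**Figure D5:**
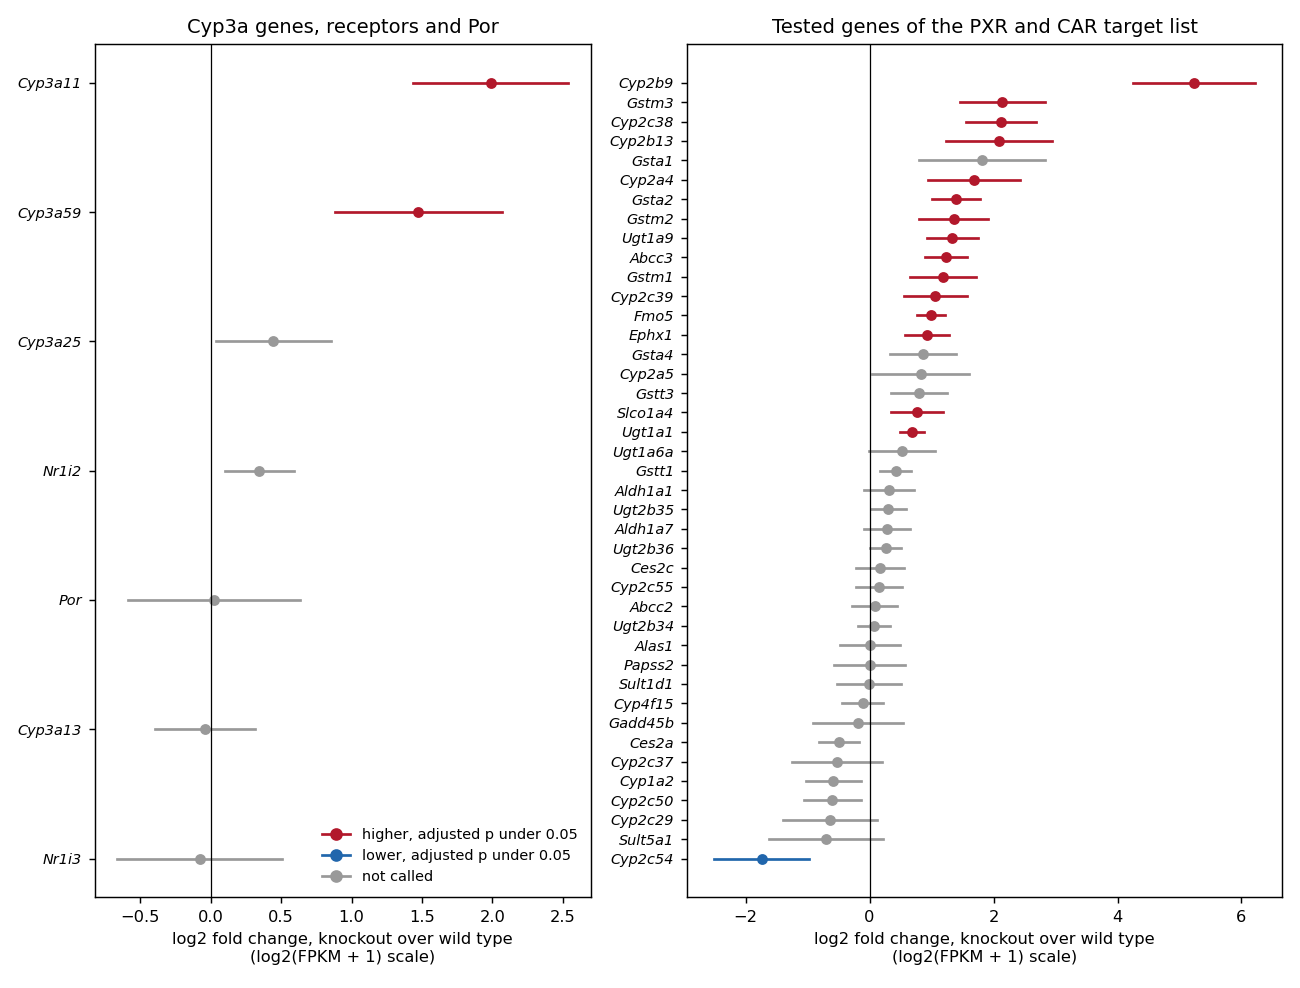
Log2 fold change, knockout over wild type, with 95% intervals, for the 7 tested Cyp3a, receptor and Por genes (left) and the 41 tested genes of the PXR and CAR target list (right). Red marks genes called higher, blue genes called lower and grey genes not called, and Cyp3a11, at 1.99, lies near the upper genes of the list below Cyp2b9 at 5.24.

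Partners of the receptors were called in both directions. Of 25 tested partners, chaperones, coregulators and upstream factors, 1 was higher and 2 were lower. Among all tested genes, 5.3% were called higher and 1.6% lower. The median log2 fold change of the 25 was -0.02. Ppara, a fatty acid receptor that can raise PXR and CAR target genes, rose to 61.6 ± 6.94 FPKM in knockout, against 38.8 ± 5.72 FPKM in wild type (SD, n = 3 each; limma, adjusted p = 0.0275). Egfr, whose signalling holds CAR inactive, fell to 46.4 ± 1.83 FPKM in knockout, against 74.7 ± 8.56 FPKM in wild type (limma, adjusted p = 0.0133). Foxa3, a liver transcription factor, fell to 20.8 ± 3.17 FPKM in knockout, against 30.7 ± 2.34 FPKM in wild type (limma, adjusted p = 0.0428). Hnf4a, which is needed for Cyp3a11 expression, was at 198 ± 21.04 FPKM in knockout and 189 ± 16.3 FPKM in wild type and was not called (limma, adjusted p = 0.760).

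Of 18 genes for P450 electron donors other than Por and for haem synthesis and breakdown, limma called none in either direction. Among all tested genes, 6.9% were called, so few calls would be looked for in a list of this size. The median log2 fold change of the 18 was 0.05. At an unadjusted p under 0.05, 2 were higher and 1 was lower, where 2690 of the 10633 tested genes passed in either direction. Voom on the recovered reads called none, where 821 genes were higher and 207 lower of 10628. Cyb5a, the cytochrome b5 that can pass an electron to CYP3A enzymes, was at 775 ± 110.4 FPKM in knockout and 685 ± 77.1 FPKM in wild type (limma, adjusted p = 0.479). Pgrmc1, a haem protein that binds P450 enzymes, was at 758 ± 30.4 FPKM in knockout and 619 ± 32.4 FPKM in wild type, without overlap (limma, adjusted p = 0.110). Alas1, the first enzyme of haem synthesis and itself a PXR and CAR target, was at 123 ± 27.6 FPKM in knockout and 123 ± 30.4 FPKM in wild type, and is named after its values were seen.

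Among 228 tested genes of the lists, those whose log2 level over the 6 libraries was most like Cyp3a11 were Ppara (Pearson r = 0.992), Cyp2c38 (0.984) and Aldh3a2 (0.982). Most like Nr1i2 were Rxra (0.929), the gene of its dimer partner, and the endothelial genes Pecam1 (0.920) and Oit3 (0.911). Most like Nr1i3 were Alad (0.867), Ncoa2 (0.845) and Cpox (0.821), and Alad and Cpox encode haem synthesis enzymes. These values describe 6 libraries of 2 genotypes, which the genes share.

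Other gene lists are given beside Cyp3a11 and Cyp3a59 by their counts, to be read against 5.3% higher and 1.6% lower among all tested genes. Unadjusted counts are to be read against 2690 of 10633 genes under 0.05 in either direction. Counts by voom are to be read against 821 higher and 207 lower of 10628. Of 22 tested male-biased liver genes, 12 were lower in knockout, with a summed level of 1755 to 4355 FPKM in knockout libraries and 13184 to 20486 FPKM in wild-type libraries. Most of the wild-type sum was Serpina1e and Mup7, named after their values were seen. They averaged 5509 and 6241 FPKM in wild type, against 280 and 580 FPKM in knockout. Of 9 tested female-biased genes 5 were higher, with sums over 18 genes of 71.4 to 160.7 FPKM in knockout and 14.3 to 24.1 FPKM in wild type, while the female-biased Cyp3a41a and Cyp3a44 stayed near 0 in both genotypes. Of those 5, Cyp2b13, Cyp2a4 and Cyp2a22 reached the filter only through their knockout values, so the filter partly fixed that count. Most of the female-biased sum in knockout was Cyp2b9, at 76.9 ± 34.1 FPKM (SD, n = 3). Markers of monocyte-derived macrophages were higher for 3 of 11 tested, with sums over 13 genes of 186 to 421 FPKM in knockout and 127 to 163 FPKM in wild type. Of those 3, Gpnmb and Mmp12 likewise reached the filter only through knockout. At an unadjusted p under 0.05, 7 of the 11 macrophage markers were higher and 0 lower (4 and 0 by voom). Of 15 tested pericentral genes, from the zone around the central vein, 3 were higher, 0 lower and 12 not called (4 higher and 3 lower at an unadjusted p under 0.05, 4 and 0 by voom). Of 14 tested periportal genes, 1 was higher, 3 were lower and 10 were not called. At an unadjusted p under 0.05, 1 periportal gene was higher and 6 were lower (1 and 5 by voom). The female-biased list shares 4 genes with the PXR and CAR target list, Cyp2b9 among them. The part of these groups in the Cyp3a results was not tested.

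Other marker lists, here and in the next paragraph, are given by their calls and by their summed level per library. Their counts are to be read against the same shares and counts of all tested genes. Of 19 tested hepatocyte markers 2 were lower, and of 15 tested Kupffer cell markers 1 was lower, with sums of 427 to 511 FPKM in knockout and 408 to 450 FPKM in wild type for the Kupffer list. At an unadjusted p under 0.05, 0 hepatocyte markers were higher and 5 lower (0 and 3 by voom). For Kupffer cell markers these counts were 2 and 3 (0 and 1 by voom). Of 14 tested endothelial markers 2 were higher and 0 lower (7 and 0 at an unadjusted p under 0.05, 3 and 0 by voom). The endothelial sums were 208 to 243 FPKM in knockout and 189 to 220 FPKM in wild type. Of 6 tested erythroid markers 2 were higher and 0 lower (2 and 2 at an unadjusted p under 0.05, 1 and 0 by voom), with sums of 68.9 to 171 FPKM in knockout and 79.5 to 127 FPKM in wild type. The higher ones, Hbb-b1 and Hbb-b2, reached the filter only through knockout, and Hbb-b1 averaged 19.9 FPKM in knockout and 0.181 FPKM in wild type. The related globin genes Hbb-bs and Hbb-bt, named like these after their values were seen, had log2 fold changes of -1.77 and -1.26 and were not called (limma, adjusted p = 0.196 and 0.197). The remaining tested erythroid markers, Hba-a1 and Alas2, were not called either, with log2 fold changes of -0.56 and -0.26.

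No call by limma was made among 13 tested stellate markers (2 higher at an unadjusted p under 0.05, none by voom), 5 cholangiocyte markers or 1 lymphocyte marker (none by either measure). Their sums were 208 to 264, 42.1 to 106.5 and 4.17 to 11.4 FPKM in knockout, against 200.03 to 228, 36.4 to 68.7 and 4.74 to 6.62 FPKM in wild type. Most of the cholangiocyte sum was Spp1, which is also on the macrophage list. Spp1 was at 55.3 ± 30.6 FPKM in knockout and 38.1 ± 15.1 FPKM in wild type (SD, n = 3 each). Of 9 markers of intestinal epithelium, another site of Cyp3a11 and Cyp3a13, 2 passed the filter, of which 1 was higher and 1 was lower, the lower one, Tff3, through its wild-type values alone. The list's sum was 111 to 125 FPKM in knockout and 82.1 to 93.2 FPKM in wild type, without overlap. Most of that sum was the higher gene, Fabp2, at 118 ± 8.38 FPKM in knockout and 68.1 ± 12.7 FPKM in wild type (SD, n = 3 each). Tff3 went the other way, at 0.713 ± 0.646 and 16.8 ± 11.2 FPKM. Lct and Alpi, which define absorptive cells, were listed at 0 in all libraries. The part of these lists in the Cyp3a results was not tested either.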

How the data were processed

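The authors deposited 1 table of FPKM, per its name, with 1 column per library and 46095 gene symbols. The submitters' processing notes name Bowtie 0.12.2, HISAT2, mm8 and mm10. What each was for, the annotation, the strand setting and how multiply matching reads were handled are not given in the sources used here. Trizol extraction and a TruSeq kit, with 1 ug of RNA per library, come from the labels' protocols.

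Libraries were grouped by title. Limma 3.58.1 in R 4.3.3 (lmFit, eBayes with trend, two-sided) compared the genotypes on log2(FPKM + 1), with no covariate, for genes averaging 1 FPKM or more. No label ties replicates to separate animals, so p-values measure only the spread between these libraries, which may be technical. FPKM are whole multiples of the value of 1 read, and whole reads came out in every library for 99.99% of the 17549 genes detected in 4 or more, within 0.001 reads plus 2e-07 per read and at most 0.05 reads. The fit was tested on simulated data. Transcripts and positions come from GENCODE vM21 and promoters from RefSeq, all matched by symbol. Transcripts were aligned with Biopython 1.88, and identity is over aligned bases. Exact permutation tests and summaries used Python 3.11.15 with pandas 2.3.3.

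The genes and lists were chosen with earlier results of these data known. Named genes are the 10 members, the other Cyp3a rows, Arrb1, up to 8 called genes per direction with the smallest p and 3 uncalled genes with the highest mean from the target, partner and P450 lists, and at most 3 from any other list. Not every gene this rule allows is described. Alternatives tried were TPM, quantile normalization, median-of-ratios scaling, a smaller pseudocount (0.1), a higher filter (5 FPKM) or none, eBayes without trend, the replicate block, limma's voom on recovered reads, and each library left out.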

Additional observations from a re-analysis of the deposited data

How the results depend on the processing

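The rise of Cyp3a11 passed under all 15 alternatives (log2 fold change 1.78 to 2.21; limma, adjusted p from 0.00270 to 0.0493), the last with no filter, which tests 22476 genes. The summed Cyp3a level was 1.33 higher on the log2 scale, and 1.18 to 1.45 higher with any 1 library left out. Members called higher numbered 2, 3 as TPM (with Nr1i2), 1 with no filter and 1 to 2 with any 1 library left out, and members called lower numbered 0 in each. Of all genes, 564 were higher, against 280 with the replicate block, 371 under quantile normalization, 346 under median-of-ratios scaling, 990 as TPM and 88 when unfiltered, and 100 (without knockout replicate 2) to 428 with any 1 library left out. Lower genes numbered 170, against 58 with no filter and 55 (without wild-type replicate 2) to 121 with any 1 library left out. On the recovered reads, voom called 821 higher and 207 lower. Of the PXR and CAR target list 15 were higher, against 6 with no filter and 8 to 18 with any 1 library left out, and 1 was lower, against 0 with no filter or the replicate block and 0 to 5 with any 1 library left out. Cyp3a59 kept its direction throughout (1.22 to 1.78). Signs that turned belonged to genes that were not called, namely Cyp3a13 (0.015 on the TPM scale; -0.18 to 0.092 with any 1 library left out), Nr1i3 (-0.33 to 0.18 with any 1 library left out) and Por (-0.078 by median-of-ratios, -0.054 by quantiles; -0.17 to 0.27 with any 1 library left out). The causes were not tested. Libraries with the same replicate number correlated at 0.170, -0.0625 and 0.0966 in their deviations from the group means, so the numbers were not taken to pair them, and the replicate block changed no member's call.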
